A study of Mus musculus with 2 samples.

Results

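Vit, Clec11a and Gdf10 fibroblasts are stromal cells of the mouse mammary gland that were picked out of single-cell data by 4 genes, Vit, Clec11a, C2 and Gdf10. They numbered 1464 of the 23733 deposited barcodes, 743 from Gpm6a-deleted animals and 721 from wild-type animals. A barcode was kept with at least 1000 unique molecular identifiers (UMIs, each standing for 1 captured transcript), at least 500 genes and at most 10% mitochondrial UMIs. It was gated as a fibroblast when Col1a1, Col3a1 and Dcn together made up at least 40 per 10000 of its UMIs and Ptprc, Epcam and Cdh5 had none. Of 21891 barcodes that passed the filters, 8278 were gated as fibroblasts.

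Each gated fibroblast was then scored by how many genes of 5 sets of 4 had a UMI. The sets were A (Pi16, Dpp4, Smpd3, Wnt10b), B (Scg3, Adam12, Bmper, Enpep), C (Stra6, Crabp1, Col13a1, Mmp11), D (Vit, Clec11a, C2, Gdf10) and E (Rxfp2, Rspo3, Chrdl2, Myoc). A member of set D had at least 2 of its 4 genes and more than of any other set, and the cells of the other sets were taken by the same rule. The measured levels of these genes therefore chose the members. Members against other sets are a description throughout, with no test.

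The series compared the 4th mammary glands of virgin C57BL/6 females, 6 to 8 weeks old, with a deletion of Gpm6a (KO) or without it (WT). The glands came from 3 littermates per genotype, were digested with collagenase, trypsin and DNase, and were sorted by flow cytometry for cells that excluded DAPI. The labels do not say whether the animals were pooled or give the extent of the deletion. There was 1 library per genotype, so no difference between KO and WT has a replicate check. The intervals given are exact 95% intervals of counting error only. Gpm6a, which encodes a membrane glycoprotein of neurons and other cells, had 0 UMIs in the KO members, an upper limit of 0.686 counts per 1000000 UMIs (CPM). It had 2 UMIs, both in 1 cell, in the WT members, so these cells do not check the deletion.

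Fibroblasts of the mammary fat pad build the matrix around the ducts and send growth factors and cytokines to the epithelium and to immune cells. In adipose tissue, stromal cells that carry CD142 (tissue factor, encoded by F3) also express Gdf10, Clec11a, Fmo2, Mgp and Meox2, and are known to restrain the formation of fat cells. Vit encodes vitrin, a protein of the extracellular matrix. Clec11a encodes osteolectin, a secreted growth factor for bone-forming progenitors. C2 encodes a protease of the classical and lectin pathways of complement, and Gdf10 encodes the secreted ligand BMP3b of the TGF-beta superfamily.

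Il6 is a known target of NF-kappaB, and Ifit1 and Isg15 are known targets of interferon. The RefSeq promoter windows of these genes and of Ccl8 (build GRCm38.p6) are shown because the levels described further on turn on these genes. Each runs 5′ to 3′ on the gene's strand over the 250 bases before its annotated start. Capitals mark matches, on either strand, to the interferon-stimulated response element letters (GAAA, any 2 bases, GAAA) or to the kappaB letters (GGGA, any 1 base, TTTCC). In Isg15, 3 overlapping matches form 1 run of capitals.
Il6, chr5:30012864-30013113, plus strand: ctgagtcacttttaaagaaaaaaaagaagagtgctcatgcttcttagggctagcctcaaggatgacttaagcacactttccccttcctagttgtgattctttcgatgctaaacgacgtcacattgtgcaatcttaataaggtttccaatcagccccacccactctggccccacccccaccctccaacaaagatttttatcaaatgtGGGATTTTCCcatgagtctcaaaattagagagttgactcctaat
Ccl8, chr11:82114935-82115184, plus strand: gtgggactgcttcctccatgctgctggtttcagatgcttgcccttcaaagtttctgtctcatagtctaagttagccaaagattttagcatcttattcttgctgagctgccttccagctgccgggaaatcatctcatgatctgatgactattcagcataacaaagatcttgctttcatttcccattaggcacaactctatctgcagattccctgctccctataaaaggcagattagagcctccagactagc
Ifit1, chr19:34640639-34640888, plus strand: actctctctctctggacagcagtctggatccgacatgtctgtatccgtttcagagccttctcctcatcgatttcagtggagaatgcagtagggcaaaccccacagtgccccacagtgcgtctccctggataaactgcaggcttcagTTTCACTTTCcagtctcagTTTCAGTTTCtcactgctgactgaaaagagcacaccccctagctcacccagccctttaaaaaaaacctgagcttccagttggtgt
Isg15, chr4:156200819-156201068, minus strand: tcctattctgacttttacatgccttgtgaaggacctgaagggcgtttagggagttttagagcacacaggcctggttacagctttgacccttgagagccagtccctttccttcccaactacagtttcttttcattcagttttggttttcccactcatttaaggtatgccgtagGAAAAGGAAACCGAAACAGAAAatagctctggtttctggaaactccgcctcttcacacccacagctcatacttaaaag
The window of Il6 held 1 kappaB match. Those of Ifit1 and Isg15 held 2 and 3 interferon matches, and that of Ccl8 held neither set of letters. A match is a run of letters and not a measured binding site. Of 27025 genes with a window, 3.46% held the interferon letters and 0.414% the kappaB letters. Of the 18 interferon-stimulated genes listed and present, 13 had a window and 7 of these held the interferon letters (Bst2, Gbp2, Ifit1, Ifit3, Isg15, Oas1a and Rsad2). Of the 22 listed chemokines and inflammatory mediators, 16 had a window, and 4 held the kappaB letters (Csf1, Cxcl1, Cxcl2 and Nfkbia). Among the 20 genes highest over the other fibroblast sets, 14 had a window, of which Cxcl3 and Il6 held the kappaB letters.

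The members carried fibroblast RNA, as the gate required. Epithelial barcodes were chosen for Epcam and few gate UMIs, so the contrast with them was set by the choice of cells. The members' summed level of 7 fibroblast markers (Col1a2, Pdgfra, Lum, Col6a1, Mfap5, Pdgfrb and Thy1) was 17174 CPM in KO and 24095 CPM in WT, against 48.2 and 92.1 CPM in epithelial barcodes of the same libraries. Col1a2 alone was at 13099 and 19529.5 CPM. Pdgfrb and Thy1 were at least 2-fold lower than the mean of sets A, B and C in both libraries. The 8 epithelial markers summed to 66.5 and 89.2 CPM, against 11323 and 9777 CPM in epithelial barcodes. Vascular endothelial markers summed to 13.3 and 24.4 CPM and immune markers to 43.9 and 48.3 CPM. Adipoq, the adipocyte hormone, was at 0 in both libraries. The pericyte marker Abcc9 was above the other sets, at 99.5 and 109 CPM against 1.66 to 45.4 CPM, as was Rgs5 at 11.9 and 11.3 CPM, with 71.2% and 60.3% of its UMIs in 5 cells. The tendon markers Fmod, Comp and Tnmd were above the other sets too. Tnmd and Comp had at least 92.6% of their UMIs in 5 cells, and the tendon transcription factor Scx had 1 and 7 UMIs. The files carry no cell types of the authors, and the labels name the sorted cells total primary mammary epithelial cells.

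Members were shallower than other fibroblasts. Their median depth was 5444 UMIs and 1818 genes per cell in KO, and 6852 UMIs and 2202 genes in WT. The medians of sets A, B and C were 8539 to 10140.5 UMIs in KO and 11733 to 13060 UMIs in WT. Mitochondrial UMIs had medians of 1.41% and 1.53% in the members. The nuclear RNA Malat1 took 0.627% of KO and 1.11% of WT member UMIs, and ribosomal protein genes 15.8% and 12.6%. Both of these differences between libraries had the same direction in sets A, B and C. Of the barcodes, 33 had the same sequence in both libraries, and none of these was a member. A doublet caller marked 4 KO members (0.538%) and 7 WT members (0.971%). It marked 1.01% and 1.61% of gated fibroblasts, and 3.99% and 4.20% of all barcodes kept.

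Set D held nearly the same share of gated fibroblasts in both libraries. It was 17.8% (16.7 to 19.0%, 743 of 4173 cells) in KO and 17.6% (16.4 to 18.8%, 721 of 4105 cells) in WT, and the intervals overlapped. The rule counts detected genes and so depends on depth. With every barcode thinned to 2000 UMIs before the rule, the shares were 11.5% (512 of 4433 cells) and 11.7% (500 of 4279 cells). The intervals of set B overlapped too, at 17.4% (16.3 to 18.6%) in KO and 18.1% (16.9 to 19.3%) in WT. Set A, the Pi16 and Dpp4 cells, held 24.5% in KO and 17.4% in WT, and set C 16.5% and 12.5%. After thinning, set C held 5.21% (4.58 to 5.91%) and 4.86% (4.24 to 5.55%), with overlapping intervals. As found, set E held 0 of 4173 KO cells, which allows a share of up to 0.0719%, against 6.63% in WT.

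**Figure D1:**
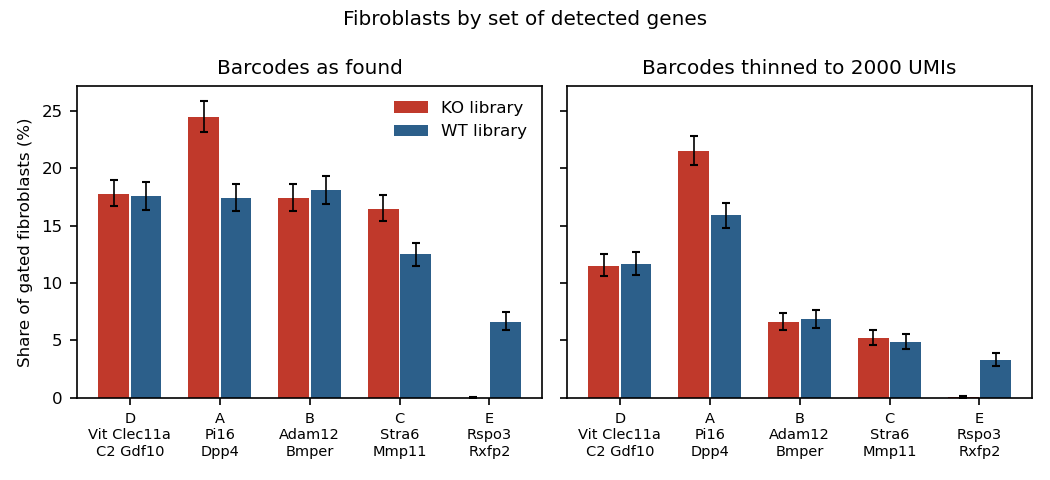
Share of gated fibroblasts (%) that fell into each gene set in the KO (red) and WT (blue) library, as found (left) and with barcodes thinned to 2000 UMIs (right). Bars start at 0 and error bars are exact 95% intervals of counting error; set D stood at 17.8% and 17.6% as found, and at 11.5% and 11.7% after thinning.

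The 4 genes that chose the members are given first, as the values behind the choice. All are protein-coding genes, and on GRCm38 they lie at 17: 78508064 to 78627408 (Vit), 7: 44302687 to 44306902 (Clec11a), 17: 34862604 to 34898265 (C2) and 14: 33923587 to 33937983 (Gdf10). Vit was at 160.5 (149 to 173) CPM in KO and 157 (146 to 167) CPM in WT members, against at most 12.3 CPM in sets A, B and C of either library. Clec11a was at 195 (182 to 209) and 219 (207 to 232) CPM, against at most 7.63 CPM. C2 was at 514 (492 to 535) and 500.4 (482 to 519) CPM, with its next level in set A at 82.9 and 87.3 CPM. Gdf10 was at 572 (550.1 to 595) and 568 (548 to 588) CPM, and its next level was in set B at 103 and 136 CPM. The intervals of each of the 4 genes overlapped between the libraries.

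In single cells these genes were sparse. Median counts per member were 1 UMI for Vit and Clec11a in both libraries, and 2 (KO) and 3 (WT) UMIs for C2 and for Gdf10. All 4 genes were detected in 183 KO members (24.6%) and 246 WT members (34.1%). C2 with Gdf10 alone was the next most frequent combination at 19.4% and 16.6%, while Vit with Clec11a alone held 0.269% and 1.25%. Members with more of the genes were deeper: in KO the median was 4102 UMIs for 2 genes, 5465 for 3 and 6986 for 4, and in WT it was 4764, 6425.5 and 8743.

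Just outside the rule, 116 KO and 86 WT fibroblasts had 1 of the 4 genes and none of any other set, with median depths of 2506 and 1917.5 UMIs. A further 373 KO and 443 WT cells had at least 2 of the 4 genes but as many or more of another set. Set B matched or exceeded set D in 228 and 272 of these, and their medians were 10529 and 14635 UMIs. In the first group Il6 stood at 857 and 1005 CPM, Postn, a matrix protein, at 1343 and 1461 CPM, Ccl8 at 406 and 109.9 CPM and Thbd, the thrombin receptor thrombomodulin, at 708 and 995 CPM. In the second group Il6 was at 202 and 149 CPM and Postn at 3551 and 4516 CPM. In members with 2, 3 or 4 genes detected, Il6 was at 883 to 1418 CPM and Ccl8 at 325 to 849 CPM. Postn fell with the number detected, from 1272 to 593 and 355 CPM in KO and from 1015 to 591 and 348 CPM in WT. Fmo2 rose, from 246 to 278 and 519.5 CPM in KO and from 163 to 336 and 525 CPM in WT.

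Each of the 4 genes was also read in cells picked by the other 3, with the same margin over the other sets. Vit had a UMI in 47.8% (43.9 to 51.7%) of such KO cells and 54.1% (50.1 to 58.0%) of such WT cells, against 8.93% and 10.3% in set A. Clec11a had one in 49.0% and 59.7%, against 4.92% and 8.29% in set A. C2 had one in 83.2% and 86.1%, against 42.6% and 47.4% in set A, and Gdf10 in 83.2% and 81.7%, against 48.1% and 55.5% in set B. In epithelial barcodes, which had median depths of 17483 and 19042 UMIs, the shares were 0.509% and 0.868% for Vit, 10.5% and 7.78% for Clec11a, 4.45% and 5.40% for C2, and 0.668% and 0.997% for Gdf10. Each left-out gene was thus found in more of the chosen cells than of sets A, B or C, although the chosen cells were shallower. The other 3 genes belong to the same rule, so this too is a description.

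Outside the rule's own genes, 10763 genes had at least 20 UMIs in the members of both libraries together. Levels in members were set against the mean of sets A, B and C in each library, as log2 ratios with 1 CPM added to each side. The median over all these genes was -0.28 in KO and -0.27 in WT. At least 2-fold higher in both libraries were 376 genes (3.49%), and 649 genes (6.03%) were at least 2-fold lower. With TMM scaling, which sets the bulk of genes level, the medians became -0.05 and -0.06 and the counts 479 and 360, so the split of higher to lower calls turned from 36.7% to 57.1% higher. With 5 CPM added the counts were 205 and 394, and among genes with at least 100 UMIs they were 247 and 324. A stricter count, at least 2-fold above the highest of the 3 sets in both libraries, held 187 genes (1.74%).

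Cxcl5 ranked first of the 20 named genes by the smaller of its ratios, followed by Arhgdib, Tifa, Cpe and Il6, and the cytokine and chemokine genes are given first here. Il6, which encodes interleukin 6, was at 1063 (1033 to 1094) CPM in KO and 1224 (1195 to 1254) CPM in WT members, against 28.6 to 186 CPM over sets A, B and C. That was 9.75-fold and 15.2-fold the mean of the 3 sets. Cxcl5, a chemokine for neutrophils, was at 309 (293 to 326) and 311 (296 to 326) CPM, against 0.277 to 11.5 CPM in the other sets. Its 5 highest cells held 18.2% and 26.3% of its UMIs. Ccl8, a chemokine for monocytes and other leukocytes, was at 598 (575 to 621) and 488 (469 to 506) CPM, against 28.6 to 233 CPM. The related Cxcl3 was at 97.9 and 105 CPM, but 40.2% and 52.6% of its UMIs lay in 5 cells.

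Several of the other leading genes encode secreted or surface proteins. Thbd was at 1079 (1048 to 1109.9) and 1456 (1424 to 1488) CPM, against 421 and 466 CPM in set A and 13.9 to 95.6 CPM in sets B and C. Gas6, the ligand of the TAM receptor kinases that help in clearing dead cells, was at 406 and 422 CPM, against 5.13 to 137 CPM. Cpe, a carboxypeptidase that trims peptide hormones, was at 189 and 309 CPM, against 9.29 to 43.2 CPM. Prlr, the prolactin receptor, was at 53.3 (46.7 to 60.6) and 55.1 (49.1 to 61.6) CPM, against 1.94 to 9.90 CPM. Epithelial barcodes of the same libraries held Prlr at 945 and 753 CPM. Set E of the WT library was level with or above the WT members for some of these genes, with Cpe at 329 CPM and Prlr at 98.0 CPM, as for Ltbp4 at 778 CPM. Spock2, Itgbl1 and Bace2 were 5.38-fold to 8.28-fold the mean of the 3 sets.

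Other leading genes act inside the cell. Fmo2, a flavin monooxygenase, was at 343 and 367 CPM, against 22.4 to 53.1 CPM. Arhgdib, a regulator of small GTPases best known from blood cells, was at 240.1 and 217 CPM, against 8.82 to 18.7 CPM, and had a UMI in 52.2% and 57.6% of members. Tifa, an adaptor on the way to NF-kappaB, was at 97.6 and 127 CPM. Rdh10, which makes retinaldehyde from retinol, was at 249 and 224 CPM, against at most 66.6 CPM. The interferon-induced genes Ifit1 and Ifi47 were at 400.3 and 229 CPM and at 124 and 137 CPM. The remaining genes named by the same ranking were Tmem176a, Tmem176b, Pkia and Ndrg2, with levels of 54.0 to 125 CPM, and the first pair stood higher in epithelial barcodes, at 220 to 363 CPM.

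**Figure D2:**
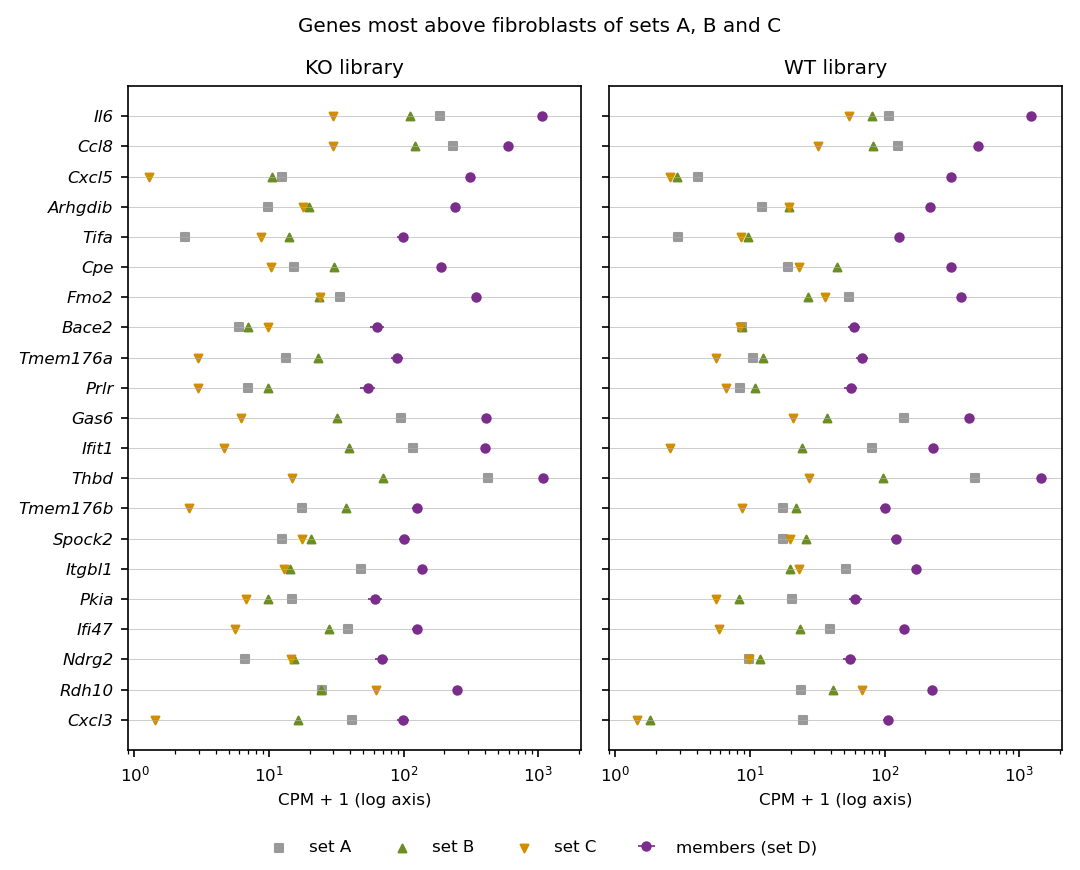
Level (CPM + 1, log axis) of the 20 genes that ranked highest in members over sets A, B and C and of Ccl8, a marker given with the rule, in the KO (left) and WT (right) library. Purple points are members with exact 95% counting intervals; Il6 stood at 1063 and 1224 CPM and its next set at 186 and 106 CPM, and for every gene plotted the members lay to the right of all 3 sets.

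The genes that were lower than the mean mostly marked 1 of the other sets. Postn was at 726 (701 to 752) and 605 (585 to 626) CPM in members, against 1578 and 1611 CPM in set A, 5944 and 6924 CPM in set B, and 12902 and 13688 CPM in set C. Pla1a, a phospholipase, was lower than each set, at 22.6 and 10.4 CPM against 169 to 249 CPM. Il34, a ligand of the macrophage receptor Csf1r, was at 4.57 and 3.41 CPM against 19.4 to 156 CPM, and Entpd1, which breaks down extracellular ATP, was at 4.80 and 4.31 CPM against 11.4 to 177 CPM.

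The other genes lower than the mean were near or above the level of at least 1 set in 1 library or both. Lrrc15, Col7a1 and Mme were high in set C at 267 to 629 CPM, and for all 3 the members' intervals held the level of set A in both libraries. Pla2g7 and Igfbp2 were also highest in set C, at 225 to 394 CPM. Igfbp2 was at 12.3 and 4.49 CPM in members and at 12.8 and 39.0 CPM in set A. Akr1c18, Efhd1 and Anxa3 were high in set A at 169.9 to 976 CPM, and in members they were at 2.51 to 38.4 CPM, against 4.90 to 54.4 CPM in set B. Set A holds the Pi16 and Dpp4 adventitial cells by its rule, and set C the Stra6 and Mmp11 cells.

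**Figure D3:**
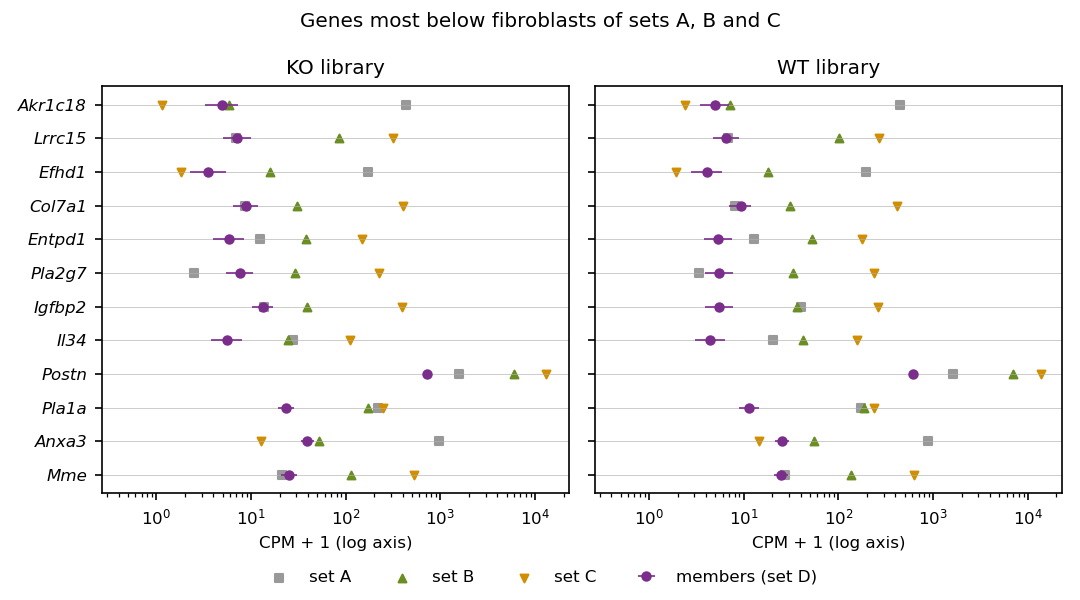
Level (CPM + 1, log axis) of the 12 genes that ranked lowest in members against the mean of sets A, B and C, in the KO (left) and WT (right) library. Purple points are members with exact 95% counting intervals; among these 12 genes, members lay below all 3 sets in both libraries for Entpd1, Igfbp2, Il34, Postn and Pla1a.

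Genes of the CD142-positive adipose stromal cell, which a list chosen with earlier results in view names, were mostly above the mean of sets A, B and C. Of 5 measured, 4 were at least 2-fold higher in both libraries (F3, Fmo2, Mgp and Meox2) and none was lower, beside 3.49% and 6.03% of all genes. Only Fmo2 and Meox2 were at least 2-fold above each of the 3 sets in both libraries. F3 was at 245 (230.2 to 259.7) and 286 (272 to 300.0) CPM against 77.3 to 147 CPM. The matrix protein Mgp, which keeps soft tissue free of mineral, was at 1934 and 2066 CPM against 104 to 1139 CPM. Set E of the WT library held F3 at 239 CPM and Mgp at 1856 CPM. The homeobox gene Meox2 was at 20.6 and 13.5 CPM against at most 1.46 CPM in sets A, B and C. Epithelial barcodes held F3 at 1300.4 and 1116 CPM. The fifth gene, the cholesterol transporter Abcg1, was at 6.63 and 7.54 CPM and not above the other sets.

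Adventitial progenitor genes were mostly lower than the mean, which includes set A. Of 8 adventitial progenitor genes, none was higher and 5 were lower (Cd55, Anxa3, Sema3c, Efemp1 and Cd248), with median log2 ratios of -1.60 and -1.51. Of all genes, 3.49% were higher and 6.03% lower. All 5 had their highest level in set A. Summed, the list was at 1182 and 869 CPM in members and 5285 and 5092 CPM in set A. The sums were 1274 and 1147 CPM in set B and 326 and 352 CPM in set C. Members were above sets B and C in both libraries for Sema3c, Ly6c1, Opcml and Tmeff2. They were below set B for Cd55, Anxa3, Efemp1 and Cd248. Of 12 adipogenic genes, none was higher and 2 were lower, the fat cell regulator Pparg at 5.72 and 5.92 CPM and the lipid droplet gene Plin2 at 52.1 and 50.4 CPM. The list's median log2 ratios were -0.73 and -0.58, and Cebpb, Cebpd and Icam1 were above the mean of the other sets by log2 ratios of 0.43 to 1.01. In sets B and C Pparg was at 10.2 to 28.4 CPM and Plin2 at 261 to 303 CPM. Set A was level with members for Pparg, at 6.22 and 6.92 CPM, and below them for Plin2, at 45.3 and 34.9 CPM. With TMM scaling 1 gene of the list was past 2-fold lower.

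Complement genes other than C2 were often above the mean of sets A, B and C. Of 12 measured, 6 were higher, among them Cfb, Cfi, Masp1, Serping1 and Clu, and 1 was lower (Cd55). The shares of all genes were 3.49% and 6.03%. Only Cfi was at least 2-fold above each of the 3 sets in both libraries. Summed, the list was at 6187 and 5282 CPM in members and 7639 and 8349 CPM in set A. Clu had 50.8% of its KO UMIs in 5 cells and was at 795 and 725 CPM in epithelial barcodes. Serping1, the C1 inhibitor, was at 2653 and 2411 CPM, with set A close at 2063 and 2249 CPM. Cfb lies beside C2 on chromosome 17 and was at 183 and 144 CPM, with set A at 168 and 129 CPM. C2 and Cfb (17: 34856374 to 34862518) shared 0 exonic bases in the GENCODE annotation of GRCm38. C3, the central component, was lower in members at 1258 and 915 CPM than in set A at 2993 and 3423 CPM. Cfi, factor I, had 10 and 14 UMIs in members and was at 0 in sets A, B and C.

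Among 22 chemokines and inflammatory mediators, 8 were higher and 1 was lower, with medians of 0.84 and 0.64. Over all genes 3.49% were higher and 6.03% were lower. Cxcl1, Cxcl2, Cxcl5 and Cxcl12 were at least 2-fold above each of the 3 sets. Cxcl1 was at 2922 (2871 to 2973) and 3826 (3775 to 3877) CPM against 80.6 to 1281 CPM, and Cxcl12, which holds blood progenitors and lymphocytes in place, at 711 and 687 CPM against 74.2 to 264 CPM. The alarmin Il33 was at 372 and 259.6 CPM against 185 and 144 CPM in set A and at most 10.7 CPM in sets B and C. Ccl2 was at 5777 and 5139 CPM, which lay within the range of sets A, B and C in both libraries. Cxcl13, a chemokine for B cells, was the gene that was lower, at 42.1 and 34.3 CPM against 406 and 562 CPM in set A.

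Of 18 interferon-stimulated genes, 7 were higher (Ifit1, Ifit3, Isg15, Rsad2, Rtp4, Gbp2 and Cmpk2) and none was lower. The shares over all genes were 3.49% higher and 6.03% lower. Ifit1, Isg15 and Gbp2 were at least 2-fold above each set. Isg15, a ubiquitin-like protein, was at 341 (324 to 359) and 187 (176 to 199) CPM, and set A came next at 124 and 83.2 CPM. Gbp2, a GTPase of host defence, was at 546 and 565 CPM against 32.7 to 183 CPM. Other genes of the list were highest in set A: Ifi27l2a was at 543 and 249 CPM in members and 2023 and 1216 CPM in set A. Immediate early genes (0 of 22 higher, 1 lower), heat shock genes (0 of 12 higher or lower, and 2 higher with TMM scaling) and MHC class I genes (1 of 14 higher, 1 lower) had medians of -0.05 to 0.33.

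BMP and TGF-beta genes, the family to which Gdf10 belongs, gave a mixed picture. Of 28 BMP pathway genes, 3 were higher, among them the secreted antagonists Chrdl1 and Nog, and the target genes Id1 and Id2 were lower. For both lists of this paragraph, the shares over all genes were 3.49% higher and 6.03% lower. Nog had 16 and 55 UMIs, of which 5 cells held 56.2% and 67.3%. In the WT library Nog was at 9.87 CPM in members and 77.6 CPM in set E. Chrdl1 was at 289 and 327 CPM, with set A level or above at 293 and 410.4 CPM. Id1 was at 54.2 and 59.8 CPM, above set A at 18.3 and 33.1 CPM. It was at 88.8 and 94.6 CPM in set B and 645 and 456 CPM in set C. Of 15 TGF-beta genes, Ltbp4, Tgfbi and Inhba were above each of sets A, B and C. The receptors Tgfbr1 and Tgfbr2 and the activin subunit Inhbb were lower. In the WT library Inhba was at 38.1 CPM in members and 37.5 CPM in set E. Ltbp4, which binds latent TGF-beta into the matrix, was at 802 and 742 CPM against 82.5 to 187 CPM, and Tgfbi, a matrix adaptor, at 469.6 and 480.2 CPM against 52.3 to 164 CPM.

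Matrix genes mostly lay below the mean of sets A, B and C, as did most of all genes measured. Collagen, elastic fibre and basement membrane genes had median log2 ratios of -0.39, -0.79 and -0.67 in KO. In WT they were -0.31, -0.77 and -0.66, beside -0.28 and -0.27 over all genes. None of 19 fibrillar collagen genes and partners, 12 elastic fibre genes or 16 basement membrane genes was at least 2-fold higher, while 2, 3 and 5 of them were lower. Over all genes 3.49% were higher and 6.03% lower. Summed, the collagen list was at 33062 and 40651 CPM in members. That was above sets A (27467 and 28319 CPM) and B (30415 and 34794 CPM) and below set C. TMM scaling gave 1 higher and 1 lower elastic fibre gene and 1 higher and 3 lower basement membrane genes. Of 12 proteoglycans, Bgn, Fmod and Podn were higher and Aspn, Vcan and Kera lower. Bgn (biglycan) was at 1552 and 2108 CPM against 249 to 1044 CPM, and Podn (podocan) at 182 and 231 CPM against 37.9 to 86.1 CPM. Of 18 matrix proteases and inhibitors, Mmp3, Timp1 and Serpina3n were higher, with Mmp3 (stromelysin) at 2149 and 2412 CPM against 428 to 1357 CPM.

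Of 19 growth factors that act on epithelium, Gas6 and Fgf7 were higher, and Ereg, Hbegf, Vegfd and Mdk lower, none of these 4 past 2-fold with TMM scaling. Fgf7, a growth factor for epithelium, was at 135 and 144 CPM against 5.16 to 81.2 CPM. Of 13 Wnt pathway genes none was higher and 5 were lower (Wnt2, Wnt9a, Wnt11, Sfrp2 and Axin2). For each list of this paragraph, the shares over all genes were 3.49% higher and 6.03% lower. Of 23 receptors, Prlr was higher and Pgr, Egfr, Pdgfrb, Fgfr2 and Il13ra1 lower. Of 12 retinoid genes, Rdh10, Rbp4, Aldh1a2 and Cyp26b1 were higher and Aldh1a3 and Rarb lower. Rbp4, the carrier of retinol, was at 149 and 89.0 CPM against 5.72 to 65.1 CPM. Of 13 IGF genes, Igfbp3 and Igfbp7 were higher and Igfbp2, Igfbp5 and Htra3 lower. None was at least 2-fold above each of the 3 sets in both libraries. Igfbp7 was at 3259 and 2267 CPM against 251 to 1521 CPM. Igfbp3 was at 843 and 852 CPM, with set A at 523 and 661 CPM and set E of the WT library at 2465 CPM.

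Of 26 transcription factors, Meox2, Foxc1, Foxc2 and Tcf21 were higher and Twist1, Osr2, Hoxc9 and Runx2 lower, beside 3.49% and 6.03% of all genes. Foxc1 was at 18.5 and 27.5 CPM against 0.832 to 2.97 CPM in the other sets, but it was also at 13.7 and 14.6 CPM in epithelial barcodes. Runx2, the regulator of bone formation, was at 10.3 and 11.8 CPM, against 65.6 to 92.2 CPM in sets B and C.

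**Figure D4:**
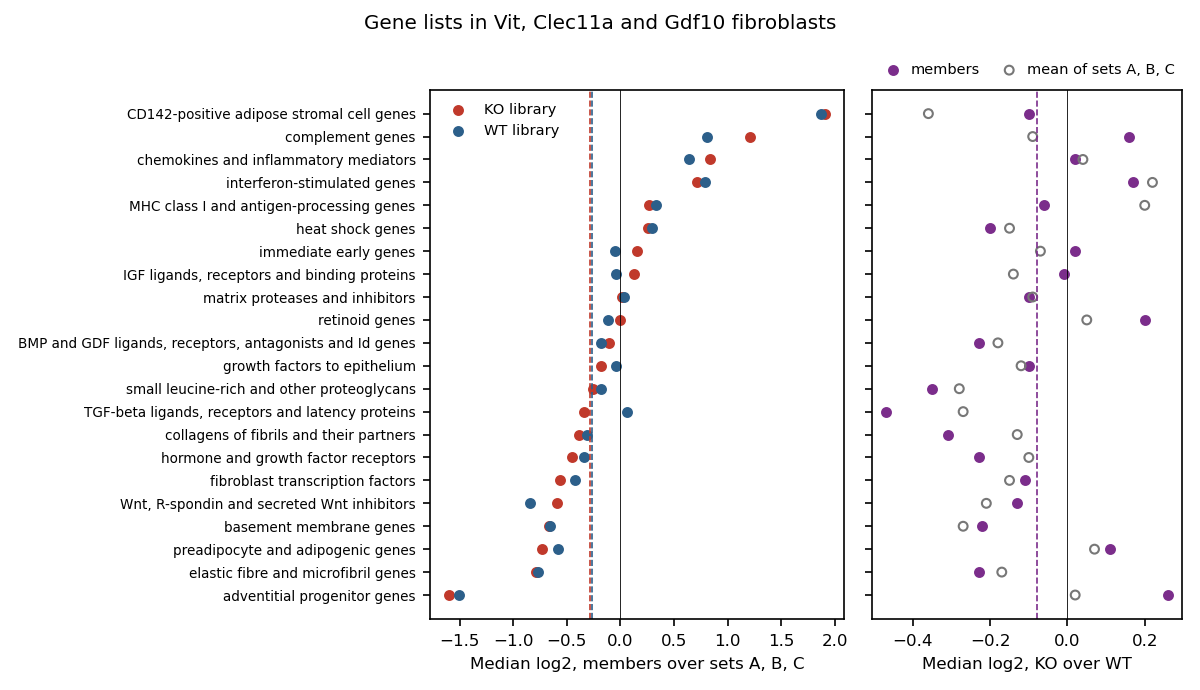
Median log2 ratio of each gene list in members against the mean of sets A, B and C (left; red KO, blue WT) and in KO against WT (right; purple members, open circles the mean of sets A, B and C). Dashed lines mark the medians over all 10763 genes, -0.28 and -0.27 on the left and -0.08 on the right; the CD142 list lay highest on the left at 1.91 and 1.87, and adventitial progenitor genes lowest at -1.60 and -1.51.

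Members differed among themselves in the cytokine and interferon genes. Il6 had a UMI in 63.7% (60.1 to 67.1%) of KO and 67.0% (63.4 to 70.4%) of WT members, and Ccl8 in 51.1% and 49.5%. Both genes were detected in 35.1% and 35.4% of members and neither in 20.3% and 18.9%. To compare sets at 1 depth, cells were thinned to 2000 UMIs, which left out 74 KO and 78 WT members. Il6 was then found in 51.0% and 52.4% of members, against 16.7% and 10.6% in set A, 13.0% and 10.4% in set B and 3.78% and 5.75% in set C. Ccl8 was found in 37.4% and 35.0%, against 22.9% and 15.6% in set A. In epithelial barcodes the thinned shares were 0.479% and 1.02% for Il6 and 0.0958% and 0.132% for Ccl8.

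Cxcl5 was found in fewer cells, 15.4% of KO and 14.2% of WT members after thinning, against at most 1.30% in sets A, B and C and 1.41% and 1.02% in epithelial barcodes. Ifit1 was found in 19.3% and 15.2%, against 10.0% and 8.01% in set A. At least 3 interferon-stimulated genes were found in 34.4% (30.8 to 38.1%) and 27.4% (24.0 to 31.0%) of thinned members, fewer in KO than the 43.9% of set A, and with overlapping intervals in WT, where set A had 34.2% (30.7 to 37.8%). Within members this share was 42.8% and 34.4% among cells with an Il6 UMI and 25.6% and 19.6% among those without. It was 47.2% and 38.7% with a Ccl8 UMI and 26.7% and 21.3% without. These cells come from 1 library per genotype, and no test was made across cells.

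Between the genotypes, most genes in the members had similar levels. The median log2 ratio of KO over WT was -0.08 over 10763 genes, and -0.08 in sets A, B and C. At least 2-fold higher in KO were 94 genes (0.873%), and 267 (2.48%) were at least 2-fold lower. These counts depend on the treatment of low levels: they were 14 and 73 with 5 CPM added and 25 and 81 among genes with at least 100 UMIs, and the higher count was 179 with 0.1 CPM added and 162 with no filter on UMIs. TMM scaling gave 117 and 225, which moved the share of higher calls from 26.0% to 34.2%. Il6 was slightly lower in KO by a log2 ratio of -0.20, Ccl8 higher by 0.29 and Cxcl5 level at -0.01. Ifit1 was higher in KO by 0.81, and by 0.60 in the mean of sets A, B and C. The share of members with an Ifit1 UMI was 23.6% in KO and 22.3% in WT.

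Of the 12 genes that ranked highest in KO over WT, Ccl21a rested on 1 cell. Ccl21a, a chemokine of lymph node stroma, had 429 UMIs in KO members, of which 1 cell held 426, and 0 UMIs in WT members, an upper limit of 0.539 CPM. Ccl21a has near-identical gene copies, so its counts are uncertain. Ccl19 was at 129 (119 to 140.3) CPM in KO and 44.7 (39.3 to 50.6) CPM in WT, with a UMI in 24.1% and 15.8% of members, and 1 cell held 33.3% of its KO UMIs. Plvap, a diaphragm protein best known from endothelium, was at 53.3 and 22.1 CPM with 7.30% and 8.13% of UMIs in 5 cells, and its mean in sets A, B and C differed by a log2 ratio of 0.04.

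The interferon-induced genes Ifi27l2a and Bst2 were also among those highest in KO. Ifi27l2a was at 543 (522 to 566) and 249 (236 to 263) CPM and Bst2, a membrane tether of viruses, at 233 (219 to 248) and 109 (101 to 118) CPM. Both had the same direction in set A (2023 and 1216 CPM, 435 and 232 CPM), and Bst2 was at 81.9 and 41.7 CPM in epithelial barcodes. Of the 18 interferon-stimulated genes these 2 were at least 2-fold higher in KO, none was at least 2-fold lower, and 12 were above 0. Over all genes the shares past 2-fold were 0.873% higher and 2.48% lower. The list median was 0.17 in members and 0.22 in sets A, B and C. The remaining genes were Pdlim2, Tmem223, Cenpx, Plac8, Churc1, Prg4 and H19, with ratios of 0.95 to 1.18. In KO members 5 cells held 59.5% of the H19 UMIs and 46.1% of the Prg4 UMIs. Of the 12 genes, 11 had the same sign in the mean of sets A, B and C.

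Among the 12 genes that ranked lowest in KO, some were lower in epithelial barcodes as well. Snhg9, a host gene of small nucleolar RNA, was at 16.5 (12.9 to 20.7) CPM in KO and 85.3 (77.8 to 93.3) CPM in WT members, and at 14.4 and 76.8 CPM in epithelial barcodes. Lars2, a mitochondrial tRNA ligase, was at 119 and 317 CPM in members and 116 and 341 CPM in epithelial barcodes. Ddx21, an RNA helicase of the nucleolus, was at 151 and 341 CPM against 83.2 and 208 CPM, and Taf1d, a factor for RNA polymerase I, at 113 and 245 CPM against 108 and 214 CPM. Wdr82 and Kif21a each had a ratio of -1.08 in members. In epithelial barcodes Wdr82 was at 31.5 and 58.5 CPM, while Kif21a was at 35.8 and 38.2 CPM.

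The remaining genes of that ranking were Angptl1, Tgfb2, Ccn2, Tlnrd1, Chst11 and Emb. These 6 and Ddx21 were at least 2-fold higher in set E of the WT library than in WT members, and the KO library held no set E cell. Emb, an adhesion protein, was at 37.3 and 79.7 CPM in members and 1032 CPM in set E, and Tgfb2, a ligand of the TGF-beta receptors, at 29.3 and 87.2 CPM and 710.1 CPM. Angptl1, a secreted protein of the angiopoietin-like family, was at 24.9 (20.5 to 30.1) and 90.6 (82.9 to 98.9) CPM, a log2 ratio of -1.82, but 0.18 with barcodes thinned to 2000 UMIs before the rule. Ccn2, a matricellular growth factor, was at 24.5 and 65.2 CPM, a ratio of -1.38, with 43.5% of the WT UMIs in 5 cells, and it turned to 0.27 under the same thinning. The part of set E cells in these differences was not tested.

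Markers of muscle differed between the libraries, in members and in sets A, B and C. All 5 skeletal muscle markers were at least 2-fold lower in KO members, with sums of 3.66 CPM in KO and 62.1 CPM in WT. The sums were 3.75 to 7.55 and 37.6 to 250.4 CPM in sets A, B and C, and 1.83 and 59.2 CPM in epithelial barcodes. The muscle markers Ckm and Myh4 were at 0 in KO members. Of 11 smooth muscle and pericyte markers, 5 were lower in KO (Acta2, Tagln, Myh11, Cnn1 and Notch3) and 1 was higher (Kcnj8), with sums of 216 and 722 CPM. Of all genes, 2.48% were lower in KO and 0.873% higher. The sums were 109 to 235 and 291 to 370.4 CPM in sets A, B and C, and 4113 and 5072 CPM in epithelial barcodes. Their median log2 ratio of KO over WT was -0.96 in members and -1.03 in sets A, B and C. Acta2 was at 30.4 and 276 CPM, and 5 cells held 45.9% of its WT UMIs. The part of these markers in the genes lower in KO was not tested.

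**Figure D5:**
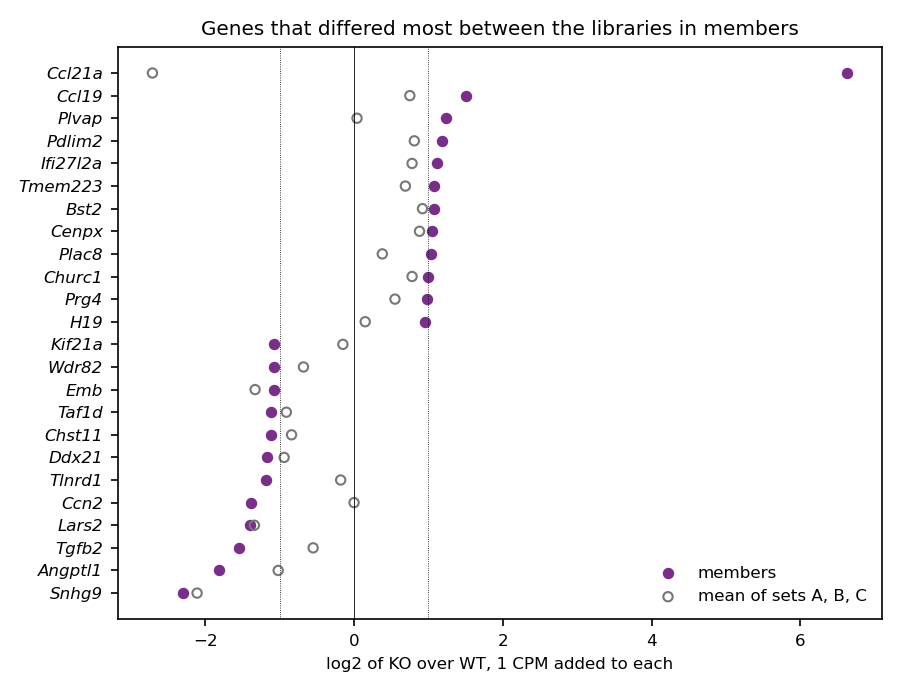
Log2 of the KO level over the WT level (each plus 1 CPM) for the genes that differed most between the libraries in members (purple) and the same ratio in the mean of sets A, B and C (open circles). Dotted lines mark 2-fold; Ccl21a stood at 6.63 in members and -2.71 in the other sets, and Snhg9 at -2.30 and -2.11.

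Of the gene lists, TGF-beta genes had the lowest KO over WT median, -0.47 in members and -0.27 in sets A, B and C. At least 2-fold lower were 2 of 15 (Tgfb1 and Tgfb2) and none was higher, beside 2.48% and 0.873% of all genes. Tgfb1 was at 16.7 and 37.9 CPM. Of its WT UMIs, 5 cells held 49.8% and 1 cell alone 42.7%. Tgfb2 was at 710.1 CPM in set E of the WT library, and the KO library held no set E cell. Adventitial progenitor genes had the highest median at 0.26, with none of 8 past 2-fold. For the other 20 lists the medians lay between these.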

How the data were processed

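The deposited files held raw UMI counts per gene and barcode, 1 matrix per library, made by the authors. Cell Ranger 5.0.1, Seurat 3.2.0 and the mouse build mm10 are listed in the submitters' processing notes, with no role stated, and the barcode filter and annotation are not given in the sources used here. The lowest deposited barcode had 500 UMIs, and the libraries held 139757797 (KO) and 160026788 (WT) UMIs over 32285 genes. Free RNA was not corrected for here.

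From these counts, barcodes were filtered, gated and put into sets with Python 3.11.15, numpy 2.4.6, scipy 1.17.1 and pandas 2.3.3. No doublets were removed, and Scrublet in scanpy 1.11.5 was run as a check. Epithelial barcodes had at least 2 Epcam UMIs, no Ptprc or Cdh5 UMI, and fewer than 40 per 10000 gate UMIs. UMIs were summed per library and set and scaled to CPM. Ratios had 1 CPM added on each side, genes needed 20 UMIs, and the 26 genes of the rule were left out. A gene counted as different at 2-fold, in both libraries for members against the other sets. With 1 library per genotype there was no test and no p-value. Shares had exact Clopper-Pearson and levels exact Poisson intervals. The limit for a count of 0 was 3 counts. TMM factors came from edgeR 4.0.16 in R 4.3.3, which was used for nothing else. The scripts were tested on simulated data.

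Genes were named as follows: the 6 markers given with the rule and Gpm6a, then the 20 highest and 12 lowest by the smaller of both libraries' ratios, with at least 50 CPM and 50 UMIs in the higher class. For KO against WT they were the 12 highest and 12 lowest with a level of 50 CPM or more in the higher library, 100 UMIs over both, and a level in members at least 0.5 times that in all other barcodes. Ribosomal protein, mitochondrial, haemoglobin, unnamed and rule genes were not named by ratio. Up to 5 genes per list were given with values. Some list genes are not reported here. The members and the 22 gene lists were chosen with earlier results of these data known. Alternatives changed the depth, the number of set genes, the scaling, the added CPM and the filter on UMIs.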

Additional observations from a re-analysis of the deposited data

Results flagged for a closer look

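Ccl21a stood on opposite sides of the other fibroblast sets in the 2 libraries. On the log2 scale with 1 CPM added, members over the mean of sets A, B and C gave 6.27 in KO and -3.07 in WT, and this difference was not tested. In KO members 1 cell held 426 of the 429 UMIs. In the WT library members had 0 UMIs and set B was at 21.8 CPM.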

How the results depend on the processing

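The share of members among gated fibroblasts moved with the rule and the depth, and the libraries moved together: it was 11.5% (KO) and 11.7% (WT) with barcodes thinned to 2000 UMIs, 11.2% and 11.8% with at least 3 of the 4 genes, and 20.6% and 19.7% with at least 1. TMM factors lowered the genes at least 2-fold lower than sets A, B and C from 649 to 360. Adding 5 CPM gave 205 higher and 394 lower against those sets, and 14 higher and 73 lower in KO against WT. Adding 0.1 CPM gave 179 higher in KO, and no filter on UMIs gave 162. A filter of 100 UMIs, which tests fewer genes, gave 247, 324, 25 and 81 in the same order as for 5 CPM. Chosen after seeing the data, the highest of sets A, B and C as reference gave 187 higher and 1947 lower, and members thinned as found gave 430 lower. Of 300 recomputed ratios of KO over WT for named genes, 43 moved by more than their counting interval and 2 reversed. Thinning before the rule left 13 ratios the same, moved 15 and reversed 2. These 2 were Angptl1, from -1.82 to 0.18, and Ccn2, from -1.38 to 0.27, and the cause was not tested. None of 594 ratios of named genes against the other sets reversed, and 273 moved by more than their counting interval. No paired analysis was possible because there was 1 library per genotype. Depth limits genes at a few UMIs, such as Gpm6a, Cfi and Scx.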
